A study of Mus musculus with 27 samples.

Results

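The transcription factors that drive epithelial-mesenchymal transition (EMT) and the epithelial genes that oppose them were followed through 27 mammary tumour libraries. The 10 genes were chosen by name, 10 of 24454 listed: the EMT factors Snai1, Snai2, Twist1, Zeb1, Zeb2 and Prrx1, and the epithelial antagonists Ovol1, Ovol2, Grhl2 and Esrp1. Each had exactly 1 row in the table of read counts per 1000000 reads (CPM), and all 10 passed the filter of at least 1 CPM in at least 2 libraries.

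The cells were tumour lines grown from a thoracic mammary gland of FVB/N mice that carry MMTV-PyMT, a polyoma middle T oncogene driven in the mammary gland. In these mice both Bcl9 and Bcl9L, coactivators that link β-catenin to Pygopus, carry a domain mutant: HD1, the part that binds Pygopus, or HD2, which contacts β-catenin. A floxed wild-type allele remained beside the mutant in the lines named ΔHD1/fl and ΔHD2/fl. In ΔHD1/- and ΔHD2/- lines that allele had been removed in culture with a Cre- and GFP-expressing adenovirus and sorting for GFP. So every line carried a mutant allele and the oncogene, and no line was fully wild type. Fibroblasts had been removed by brief trypsin treatment. Each of the 9 lines, 2 per genotype and 3 for ΔHD2/-, was grown without cytokine, with Wnt3a at 100 ng/ml over 3 days, and with TGFβ at 2 ng/ml over 4 days. The untreated libraries are labelled day 4, as are those with TGFβ, while those with Wnt3a are labelled day 3. The replicate number names the line, so a treated library can be set against the untreated library of the same line.

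Snail (Snai1), Slug (Snai2), Zeb1 and Zeb2 are zinc finger repressors that bind E-boxes in the promoters of epithelial genes such as E-cadherin. Twist1 is a basic helix-loop-helix factor and Prrx1 a homeobox factor, and both are linked to mesenchymal programmes. Ovol1 and Ovol2 are zinc finger repressors that hold down Zeb1, Grhl2 activates genes of epithelial junctions, and Esrp1 is an RNA-binding protein that sets epithelial splice forms. The Zeb factors and the epithelial regulators repress each other, and TGFβ is a classical inducer of EMT in mammary epithelium.

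Of the 9 lines, 2 went against the epithelial tumour cell label. In ΔHD1/fl line 2 and ΔHD1/- line 2, untreated Cdh1, which encodes E-cadherin, stood at 0.522 and 0.237 CPM, against 606 to 1145 CPM in the other 7 lines. The 7 epithelial markers summed to 358 and 1315 CPM in these untreated lines and to between 3774 and 19529 CPM in the others. With TGFβ this separation of the sums did not hold, since ΔHD1/- line 2 had 3003 CPM, within the 2065 to 6672 CPM of the other 7 lines, while ΔHD1/fl line 2 had 37.6 CPM. Of the 7 markers, 4 and 3 reached 1 CPM in these TGFβ libraries, against 5 to 7 in each of the others. The 9 fibroblast markers summed to between 2649 and 6466 CPM in these lines without cytokine and to between 1.05 and 220 CPM in the others, with Thy1 at 0 in both. Thy1, Lum and Fap, 3 of the 9, were at 3 reads or fewer in both of these untreated lines, so the sums rest on the rest of the list. Endothelial markers summed to at most 6.47 CPM in any library, and immune markers to between 71.6 and 186 CPM in ΔHD1/- line 2 and to at most 43.6 CPM in the other lines. Fewer epithelial cells and less epithelial RNA per cell cannot be told apart in bulk libraries, and whether other cells were present was not tested. The correlations, the shares of variation, the mean responses and the list counts are therefore given with and without these lines. The levels, the genes of most similar pattern and the comparisons of recombined with fl lines include them, except where ΔHD1/fl line 2 is said to be left out. The libraries of ΔHD2/- line 2 resembled those of line 3 (correlation across genes 0.993 to 0.997, against 0.807 to 0.957 in 15 other replicate pairs) and although the 2 differed by more than counting noise, that does not show that they are independent, since the labels name 2 lines from 2 mice per genotype and ΔHD2/- has 3 numbers. They were counted as 2 of 3 lines, and calls lost when they were averaged are named. The cytokines acted on their known targets: Axin2, a Wnt target, rose by 4.22 ± 0.19 on the log2 scale with Wnt3a, and Smad7, a TGFβ target, rose by 1.71 ± 0.22 with TGFβ (limma adjusted p 7.26e-10 and 9.27e-05).

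Because Snail and Zeb factors bind E-boxes, promoters were searched for CACCTG and CAGGTG, which are the same site read on either strand. RefSeq promoter entries (GRCm38.p6) covered 5 of the 10 genes: Snai1, Twist1, Zeb2, Prrx1 and Ovol2. In the 250 bases before the start site, 1 of these 5, Snai1, held the site. Over all 27025 genes with an entry, 5252 held it (19.4%). Of the epithelial junction and polarity genes with an entry 9 of 11 held it, of the other epithelial regulators 4 of 9, and of the mesenchymal genes none of 6. The 250 bases before the start are shown for 4 genes, with the site in capitals: Snai1 itself, the grainyhead factor Grhl3 and the polarity gene Crb3, both of which fell with TGFβ, and the claudin gene Cldn4, which rose. The last 3 were chosen after the search and their values had been seen.

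Snai1, chr2:167537945-167538194, plus strand: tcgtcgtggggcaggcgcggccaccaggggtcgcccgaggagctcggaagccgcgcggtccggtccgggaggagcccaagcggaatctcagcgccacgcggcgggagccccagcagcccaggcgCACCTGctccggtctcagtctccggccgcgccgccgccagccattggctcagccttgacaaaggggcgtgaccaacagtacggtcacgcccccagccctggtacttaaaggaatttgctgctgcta

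Grhl3, chr4:135573633-135573882, minus strand: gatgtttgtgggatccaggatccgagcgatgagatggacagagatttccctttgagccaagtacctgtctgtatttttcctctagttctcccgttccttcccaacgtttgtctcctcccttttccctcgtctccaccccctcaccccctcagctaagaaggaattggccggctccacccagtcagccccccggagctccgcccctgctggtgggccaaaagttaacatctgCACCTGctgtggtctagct

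Crb3, chr17:57061951-57062200, plus strand: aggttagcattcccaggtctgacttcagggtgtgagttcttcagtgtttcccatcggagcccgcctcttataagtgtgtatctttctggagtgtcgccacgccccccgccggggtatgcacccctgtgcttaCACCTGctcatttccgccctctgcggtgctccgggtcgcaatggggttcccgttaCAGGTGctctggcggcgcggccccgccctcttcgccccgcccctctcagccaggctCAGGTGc

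Cldn4, chr5:134946935-134947184, minus strand: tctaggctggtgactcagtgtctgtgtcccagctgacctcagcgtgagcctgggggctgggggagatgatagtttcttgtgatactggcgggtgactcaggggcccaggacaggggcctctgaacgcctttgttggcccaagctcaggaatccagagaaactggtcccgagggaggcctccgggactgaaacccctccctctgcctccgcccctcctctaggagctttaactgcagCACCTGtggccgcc

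Counting back from the start site, the site began at base -126 in Snai1, at -19 in Grhl3, at -14 in Cldn4 and at -118, -63 and -7 in Crb3. A match is a string of letters and not a measured binding event.

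Without cytokine, the antagonists Esrp1 and Grhl2 had the highest median levels, while Ovol1 and Ovol2 lay among the EMT factors. Per kb of exon, the median over lines was 94.4 CPM for Esrp1 and 29.6 for Grhl2, followed by Twist1 at 12.3, Snai1 at 11.2, Snai2 at 5.28, Ovol2 at 3.55, Zeb1 at 1.92, Ovol1 at 1.76, Zeb2 at 0.607 and Prrx1 at 0.385. The ranges over lines overlapped between all neighbours in this order, so the order of neighbours is not firm. Esrp1 alone ran from 0 to 133 CPM per kb. Ovol1, Ovol2, Grhl2 and Zeb2 share exon bases with antisense genes, and since strand use in the counting is not stated, reads of the partners cannot be told apart.

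The EMT factors were not on or off together. Snai1 (chromosome 2, 167538195 to 167542814) was detected in every library, from 10.4 to 100 CPM. Zeb1 (chromosome 18) was also at 1 CPM or more in all 27 libraries, but its untreated level ranged from 1.31 CPM in ΔHD2/- line 1 to 205 CPM in ΔHD1/fl line 2. Twist1 was at 12.3 to 36.6 CPM in 6 untreated lines, at 0.296 CPM in ΔHD2/fl line 2, and at 0 reads in ΔHD2/- lines 2 and 3 under every treatment. In the libraries of these ΔHD2/- lines, 0 reads allows up to 0.107 to 0.135 CPM. Prrx1 was at 3 reads or fewer in 12 of 27 libraries, all of them from ΔHD1/fl line 1, ΔHD2/fl line 2 and ΔHD2/- lines 2 and 3. Its highest untreated level was 79.3 CPM, in ΔHD1/fl line 2. So ΔHD2/fl line 2 and ΔHD2/- lines 2 and 3 had near-zero Twist1 and Prrx1 together, while untreated ΔHD1/fl line 1 had Twist1 within the range of the other lines and no Prrx1 read. Snai2 had a pattern of its own, lowest in ΔHD1/fl line 1 at 0.457 CPM and highest in ΔHD2/fl line 2 at 33.3 CPM.

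**Figure D1:**
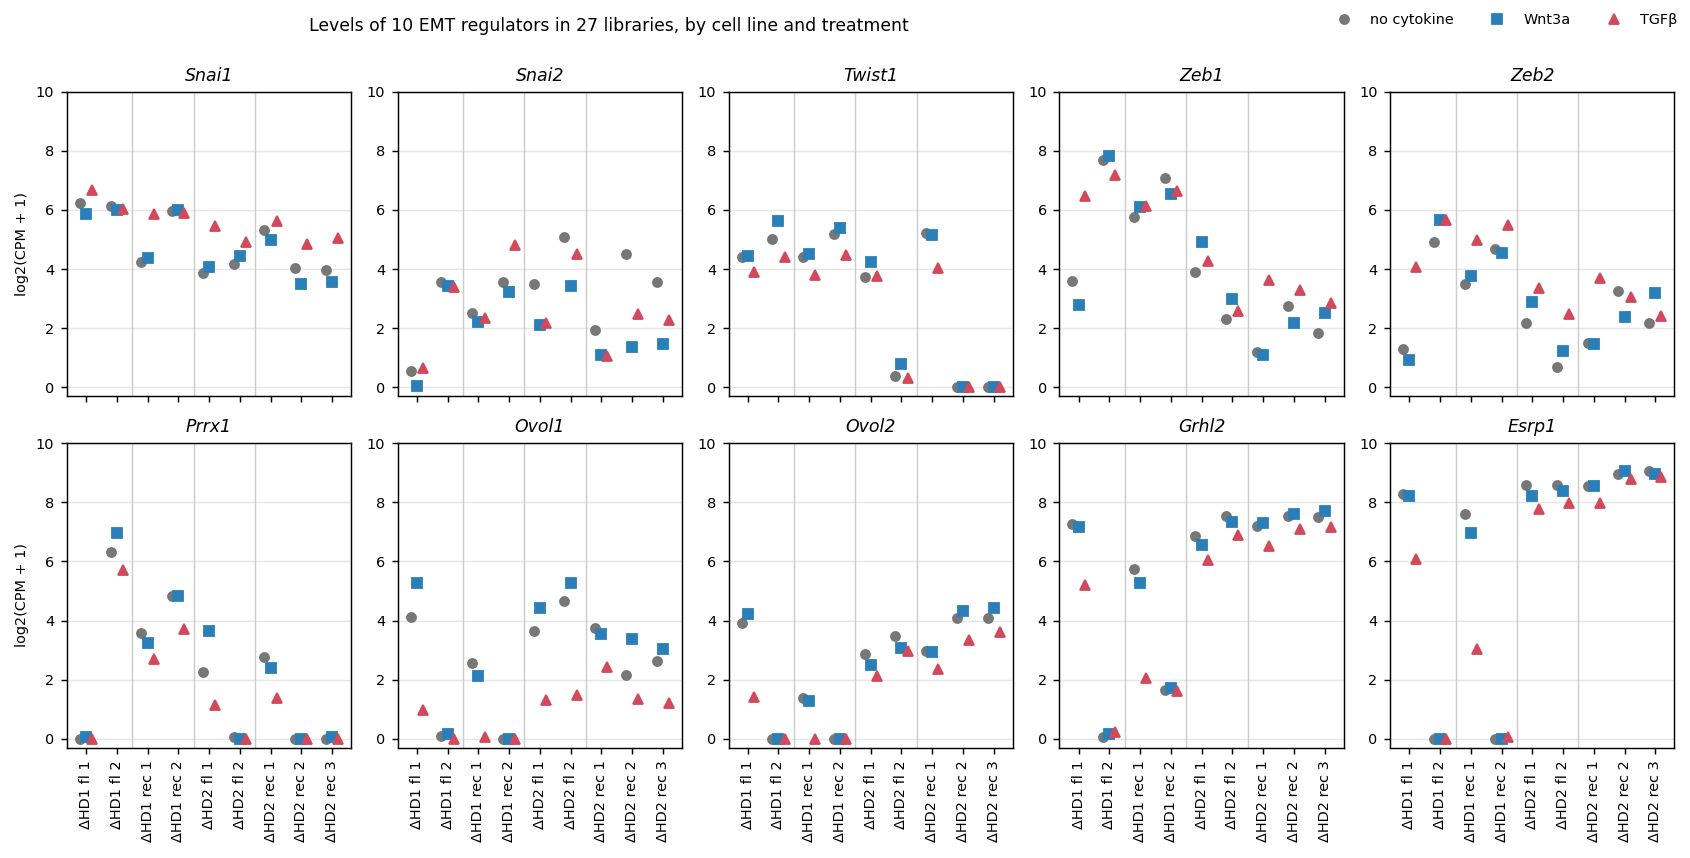
Level of each gene as log2(CPM + 1) in the 9 lines (horizontal axis, fl and rec standing for the /fl and /- genotypes) under no cytokine, Wnt3a and TGFβ, 1 point per library. Esrp1, Ovol1 and Ovol2 sit at the bottom in ΔHD1/fl line 2 and ΔHD1/- line 2, where Zeb1 is highest without cytokine (205 and 134 CPM), and Twist1 is at 0 in ΔHD2/- lines 2 and 3.

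The 4 antagonists were lowest, without cytokine, in the same 2 lines. Untreated Esrp1 was at 310, 195, 386, 381, 375, 495 and 530 CPM in ΔHD1/fl line 1, ΔHD1/- line 1, ΔHD2/fl lines 1 and 2 and ΔHD2/- lines 1, 2 and 3, and at 0 reads in ΔHD1/fl line 2 and ΔHD1/- line 2. Grhl2 was at 154, 52.8, 115, 187, 147, 186 and 181 CPM in the first 7 lines and at 0.0373 and 2.11 CPM in the last 2. Ovol1 and Ovol2 were lower genes, at 3.47 to 24.2 CPM and 1.58 to 16.1 CPM in the 7 lines, and at 3 reads or fewer in the last 2. The same pair of lines, which hold almost no Cdh1, carried the highest Zeb1 (205 and 134 CPM) and the highest Zeb2 (29.1 and 24.5 CPM) without cytokine. ΔHD1/- line 1 was intermediate, with 52.9 CPM of Zeb1 and 10.2 CPM of Zeb2 beside the lowest Esrp1, Grhl2 and Ovol2 of the 7 lines.

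**Figure D2:**
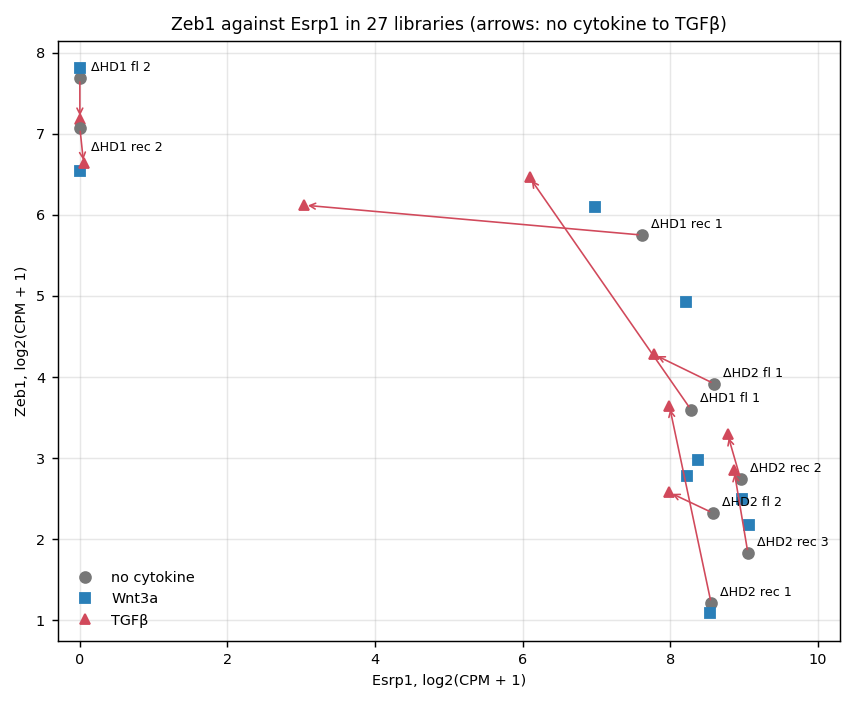
Zeb1 against Esrp1, both as log2(CPM + 1), in 27 libraries, with arrows from the untreated to the TGFβ library of each line. In 2 lines Esrp1 is at or near 0 and Zeb1 moves down, from 205 to 144 CPM and from 134 to 98.4 CPM, while in the other 7 Esrp1 moves left and Zeb1 up.

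As a description over 27 libraries, which come from 9 lines and are not independent, log2(CPM + 1) of Zeb1 had a Pearson correlation of -0.85 with Esrp1, -0.89 with Grhl2 and -0.90 with Ovol2, and Grhl2 one of 0.98 with Esrp1. Over the 21 libraries without ΔHD1/fl line 2 and ΔHD1/- line 2 these were -0.72, -0.78, -0.79 and 0.97. Snai2 had correlations between -0.35 and 0.26 over 27 libraries and between -0.55 and 0.15 over 21, the lowest being that with Twist1. Among all genes tested, over 27 libraries, the pattern most like Esrp1 was that of Epcam, an epithelial adhesion gene (0.995), and the most like Grhl2 was that of Patj, a tight junction polarity gene (0.992). Ovol1 was closest to Grhl1, another grainyhead factor (0.960), Zeb1 to Pdgfrb, a receptor of mesenchymal cells (0.946), and Ovol2 to Rab11fip4 (0.970). The closest genes to Prrx1, Twist1, Snai1 and Snai2 were Ehd3 (0.937), Ptgr1 (0.938), Pdia4 (0.903) and Chst11 (0.785).

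Over all 9 lines, most of the variation lay between lines rather than between treatments. When the sum of squares of log2(CPM + 1) was split, the line took 97.7% for Twist1, 95.4% for Prrx1, 95.2% for Esrp1, 93.7% for Grhl2, 89.1% for Ovol2 and 87.8% for Zeb1, against a median of 66.1% over all genes tested. Ovol1 had the lowest line share at 59.9% and the highest treatment share at 26.5%. Snai1, Zeb2 and Snai2 followed with 16.1%, 13.5% and 12.6% between treatments, against a median of 10.7% over all genes. With a pseudocount of 0.1 in place of 1, the line share of Ovol1 was 73.6%, above the 66.6% median of all genes and above those of Zeb2 (71.9%) and Snai1 (73.3%), and its treatment share of 18.4% was still the highest of the 10. The treatment share of Esrp1 was 1.6%, although TGFβ changes in single lines reached 27-fold. These shares rest in part on the 2 lines with almost no Cdh1. Without them the line share was 25.9% for Ovol1, 46.4% for Zeb2, 55.7% for Esrp1, 63.8% for Grhl2 and 73.3% for Zeb1 and for Ovol2, against a median of 58.4% over all genes, and 98.2% for Twist1 and 88.7% for Prrx1. The treatment share was then 62.1% for Ovol1, above its line share, 30.3% for Snai1, 29.3% for Zeb2 and 19.0% for Esrp1, against a median of 13.9%.

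**Figure D3:**
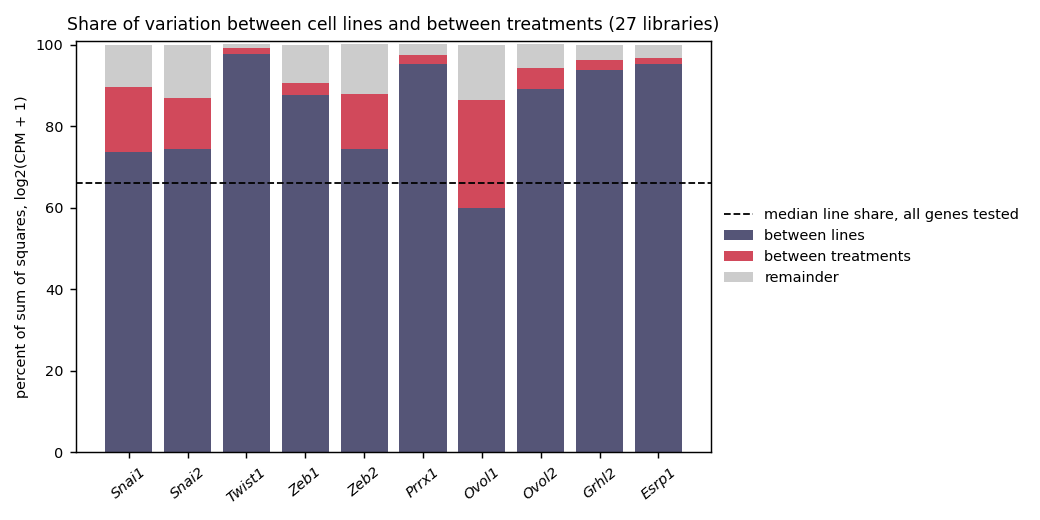
Percent of the sum of squares of log2(CPM + 1) over 9 lines and 3 treatments that lay between lines, between treatments or in neither, for each gene, with all 9 lines included. The dashed line marks the median line share of all genes tested, 66.1%, and only Ovol1 (59.9%) is under it.

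The first comparison asked which of these genes answered TGFβ. A gene was called at an adjusted p of at most 0.05 and a log2 change of at least 1. In the fit without pairing, the mean response over 4 genotypes called none of the 10, while 719 of 13270 genes (5.42%) were called. At an unadjusted p under 0.05, 3 of the 10 passed (Ovol1, Snai1 and Zeb2), as did 31.3% of all genes. EdgeR on recovered reads called none of the 10 (6.44% of all genes), with 2 of 10 at that p (27.9%). This fit sets the change against the differences between lines. With the cell line as a replicate block, the change was set against the spread within lines, and 4 of 10 were called (1 higher, 3 lower), where 8.92% of all genes were. Zeb2 rose by 1.29 ± 0.34 (SE, log2 scale; adjusted p 0.00802), Ovol1 fell by 1.70 ± 0.37 (adjusted p 0.00253), Esrp1 by 1.09 ± 0.38 (adjusted p 0.0332) and Grhl2 by 1.00 ± 0.32 (adjusted p 0.0221), just at the fold limit. With ΔHD2/- lines 2 and 3 averaged beside the block, Esrp1 was no longer called (-1.11 ± 0.44, adjusted p 0.0620). Without the block their SE were 0.60, 0.64, 1.39 and 1.03 and their adjusted p 0.154, 0.0779, 0.636 and 0.543. With another scaling (median of ratios) beside the block, Esrp1 and Grhl2 stood at -0.96 ± 0.37 and -0.85 ± 0.32 and were no longer called, while 8.54% of all genes were. That scaling moved the median of all genes from -0.16 to -0.02.

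Without ΔHD1/fl line 2 and ΔHD1/- line 2, 5 of 10 genes were called in the fit without pairing, where 7.58% of all genes were: Ovol1 at -2.39 ± 0.34, Esrp1 at -1.94 ± 0.17, Grhl2 at -1.74 ± 0.21, Ovol2 at -1.28 ± 0.36 and Zeb2 at 1.63 ± 0.48. With the block and without these lines there were 6 (11% of all genes), with Zeb1 at 1.22 ± 0.28 (adjusted p 0.00852). Each ΔHD1 genotype then had 1 line, which was assumed to vary like the ΔHD2 lines.

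Of the 10 genes, Ovol1 had the largest mean change with TGFβ, and the fall differed in size between lines. It went from 16.4 to 0.967 CPM in ΔHD1/fl line 1 and from 4.92 to 0.0397 CPM in ΔHD1/- line 1. In ΔHD2/fl lines it went from 11.6 to 1.51 and from 24.2 to 1.81 CPM, and in ΔHD2/- lines from 12.3 to 4.39, from 3.47 to 1.55 and from 5.23 to 1.33 CPM. It was lower in 7 of the 7 lines where it could be measured, and the fold ran from 2.23 in ΔHD2/- line 2 to 16.9 in ΔHD1/fl line 1. In ΔHD1/- line 1 the treated value was at the level of 1 read, so its fold is not given. No treated line was above 4.39 CPM.

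Esrp1, the splicing regulator, was lower in the same 7 lines but by very unequal amounts. It went from 310 to 67.3 CPM in ΔHD1/fl line 1 and from 195 to 7.23 CPM in ΔHD1/- line 1, folds of 4.60 and 27. In ΔHD2/fl lines it went from 386 to 219 and from 381 to 252 CPM, and in ΔHD2/- line 1 from 375 to 253 CPM. In ΔHD2/- lines 2 and 3 the change was small, from 495 to 438 and from 530 to 465 CPM. Grhl2 was 16.8-fold lower in ΔHD1/- line 1 (52.8 to 3.14 CPM) and 4.25-fold lower in ΔHD1/fl line 1 (154 to 36.2 CPM). In the 5 ΔHD2 lines it was 1.28- to 1.77-fold lower. Thus the treated ΔHD2 lines kept 65.1 to 142 CPM of Grhl2 and 219 to 465 CPM of Esrp1.

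Ovol2 was lower in 7 of 7 measurable lines, from 14.2 to 1.68 CPM in ΔHD1/fl line 1, from 1.58 to 0 CPM in ΔHD1/- line 1, and by 1.41- to 1.84-fold in the 5 ΔHD2 lines. Its mean change of -0.79 ± 0.24 with the block (adjusted p 0.0179) was under the fold limit. In ΔHD1/fl line 2 and ΔHD1/- line 2 Ovol1, Ovol2 and Esrp1 were at 3 reads or fewer before and after TGFβ, and Grhl2 went from 0.0373 to 0.178 CPM and from 2.11 to 2.09 CPM.

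Among the EMT factors, Zeb2 was higher in 8 of 9 lines. It went from 1.46 to 15.9 CPM in ΔHD1/fl line 1, from 29.1 to 49.4 CPM in line 2, from 10.2 to 30.9 and 24.5 to 43.8 CPM in ΔHD1/- lines, and from 3.49 to 9.22 and 0.592 to 4.58 CPM in ΔHD2/fl lines. In ΔHD2/- lines it went from 1.83 to 11.9, from 8.60 to 7.25 and from 3.47 to 4.34 CPM, so ΔHD2/- line 2 was the exception. The 2 lines with almost no Cdh1 shared the increase of Zeb2, though not that of Zeb1.

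Zeb1 was higher in 7 of 9 lines and lower in the other 2, ΔHD1/fl line 2 and ΔHD1/- line 2, which had started highest. Its largest increases were from 11.1 to 87.3 CPM in ΔHD1/fl line 1 (7.86-fold) and from 1.31 to 11.5 CPM in ΔHD2/- line 1 (8.78-fold). In the remaining 5 lines the increase was 1.24- to 2.43-fold, and over all lines the mean change of 0.70 ± 0.37 with the block did not pass (adjusted p 0.135). After TGFβ, ΔHD2 lines reached 4.97 to 18.4 CPM of Zeb1, under the 52.9 CPM that ΔHD1/- line 1 had without cytokine.

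Snai1 was also higher in 7 of 9 lines, from 18.1 to 56.6 CPM in ΔHD1/- line 1 and from 13.6 to 42.7 CPM in ΔHD2/fl line 1 at most. In ΔHD1/fl line 2 and ΔHD1/- line 2 it went from 69.3 to 64.5 and from 61.6 to 58.0 CPM. The mean of 0.71 ± 0.17 with the block had an adjusted p of 0.00540 but was under the fold limit. Over lines Snai1 ran from 13.6 to 74.0 CPM without cytokine and from 27.8 to 100 CPM with TGFβ.

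The other EMT factors did not go up as a set. Twist1 was lower in 6 of 7 measurable lines, most in ΔHD2/- line 1 (36.6 to 15.3 CPM), with a mean of -0.40 ± 0.13 (block, adjusted p 0.0239, under the fold limit). With median-of-ratios scaling its adjusted p was 0.0837. Of the 6 lines, ΔHD2/fl line 2 held only 8 reads before TGFβ and 7 after. Prrx1 was lower in 5 of 5 measurable lines, by 1.56- to 3.57-fold. Its mean of -0.59 ± 0.23 had an adjusted p of 0.0529 with the block, and edgeR with the block called it lower, as it called 13.8% of all genes. Snai2 was lower in 7 of 9 lines and higher in ΔHD1/fl line 1 (0.457 to 0.589 CPM) and ΔHD1/- line 2 (10.7 to 27.2 CPM), with a mean of -0.45 ± 0.22 (adjusted p 0.106).

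**Figure D4:**
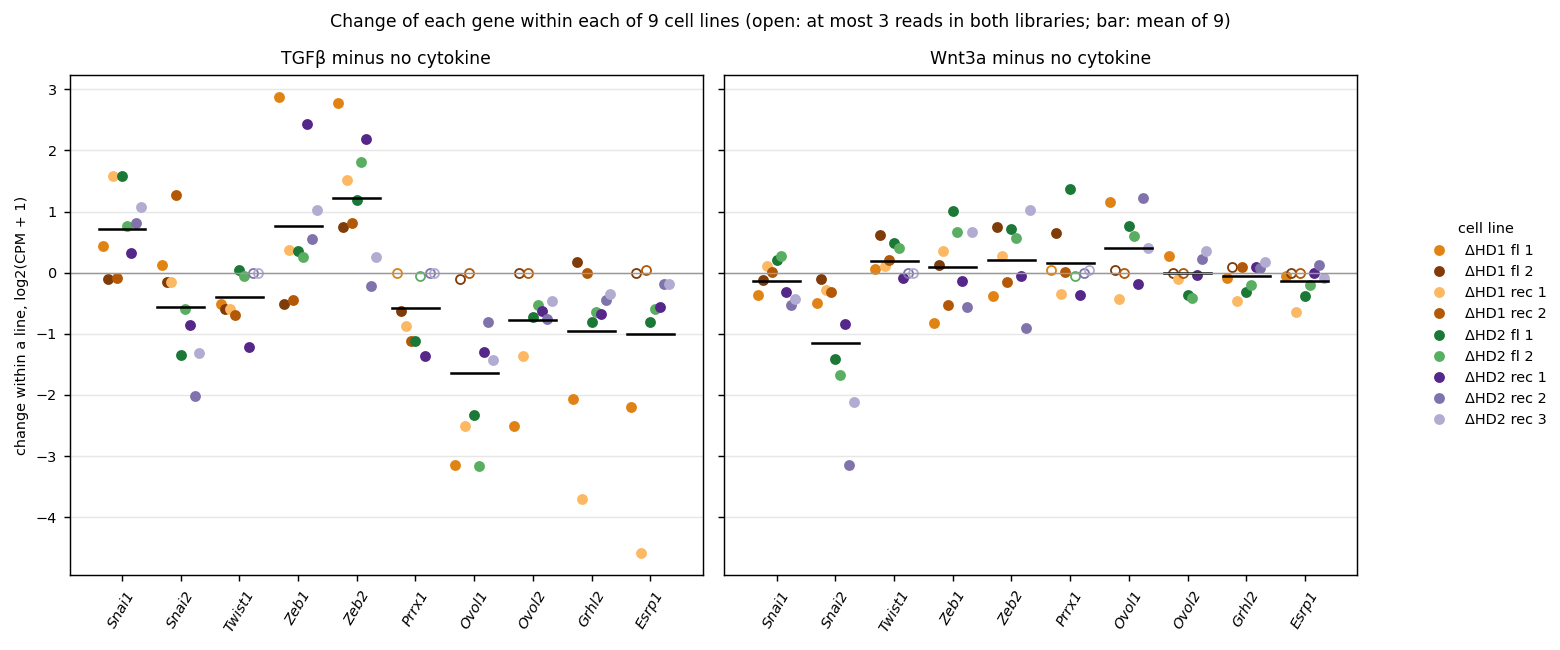
Change of log2(CPM + 1) within each line after TGFβ (left) and Wnt3a (right), 1 point per line, open where both libraries held at most 3 reads, with the mean of the 9 lines as a bar. With TGFβ, all filled points of Ovol1, Ovol2 and Esrp1 lie under 0 and 8 of 9 of Zeb2 lie above it, and with Wnt3a all 9 of Snai2 lie under 0.

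By genotype, without pairing, TGFβ called none of the 10 genes in ΔHD1/fl (0.211% of all genes called), ΔHD1/- (1.43%), ΔHD2/fl (0.286%) or ΔHD2/- (0.806%), and none had an unadjusted p under 0.05. At that p stood 8.71% to 13.4% of all genes. EdgeR without a block called none either (0.0452%, 0.528%, 0.0226% and 0.497% of all genes), with 1 gene at that p in ΔHD2/fl (6.49% of all genes) and none in the others (7.94% to 11.2%). With the replicate block, Ovol1 was called lower in ΔHD2/fl (-2.75 ± 0.77, adjusted p 0.0404, 5.24% of all genes called) and Snai2 lower in ΔHD2/- (-1.39 ± 0.37, adjusted p 0.0262, 6.03% of all genes). Neither call held throughout. With median-of-ratios scaling and the block, Ovol1 in ΔHD2/fl was lost (-2.60 ± 0.77, adjusted p 0.0577) and Snai1 was called higher (1.36 ± 0.35, adjusted p 0.0352, 4.91% of all genes). With ΔHD2/- lines 2 and 3 averaged, the block called none of the 10 in either genotype, and Snai2 in ΔHD2/- had an adjusted p of 0.142 (2.71% of all genes called). Snai2 went from 2.79 to 1.10, from 21.7 to 4.62 and from 10.9 to 3.79 CPM in the ΔHD2/- lines. In ΔHD1/fl and ΔHD1/- no member was called with the block (5.42% and 9.33% of all genes), although Esrp1 stood at -1.09 ± 0.80 and -2.26 ± 0.80, and each of these means joins a line with Esrp1 and a line without it. At an unadjusted p under 0.05 there were 2 and 3 of 10 (27.6% and 34% of all genes), and edgeR with the block called 3 in each, Ovol1, Ovol2 and Esrp1, beside 5.84% and 9.41% of all genes. In line 2 of each genotype these 3 genes were at 3 reads or fewer with and without TGFβ. Those calls therefore rest on 1 treated and 1 untreated library of line 1.

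Wnt3a is a ligand of the canonical Wnt pathway. Its libraries are labelled day 3 and the untreated ones day 4, so its changes cannot be told apart from that difference in day. In the mean response to Wnt3a, 0 of 10 were called without pairing (0.0226% of all genes) and 0 of 10 with the replicate block (0.241%). None and 1 of 10 had an unadjusted p under 0.05 (4.63% and 17.3% of all genes). EdgeR called 0 in both designs (0.0226% and 0.362% of all genes), with 0 and 3 at that p (3.78% and 14.8%). Without ΔHD1/fl line 2 and ΔHD1/- line 2, limma called 0 of 10 without pairing (0.580% of all genes) and with the block (1.22%). The gene nearest to a call was Snai2, which was lower in 9 of 9 lines, with a mean of -1.04 ± 0.22 and an adjusted p of 0.0507 with the block (0.154 with ΔHD2/- lines 2 and 3 averaged, and 0.0652 without both ΔHD1 lines 2). It went from 0.457 to 0.0317 CPM and from 10.7 to 9.87 CPM in ΔHD1/fl lines and from 4.66 to 3.63 and 10.7 to 8.38 CPM in ΔHD1/- lines. In ΔHD2/fl lines it went from 10.4 to 3.30 and from 33.3 to 9.80 CPM, and in ΔHD2/- lines from 2.79 to 1.12, from 21.7 to 1.58 and from 10.9 to 1.75 CPM. The 5 ΔHD2 lines changed by 2.50- to 13.7-fold and 3 of the 4 ΔHD1 lines by 1.08- to 1.28-fold. The fourth, ΔHD1/fl line 1, went from 10 reads to 1, a ratio of 14.4 with an exact 95% counting interval of 2.05 to 626. That interval reaches under the lowest ΔHD2 change of 2.50-fold, so where this line stood against the ΔHD2 range is not settled. The families were not tested against each other.

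Ovol1 was higher with Wnt3a in 5 of 7 measurable lines, from 16.4 to 37.5 CPM in ΔHD1/fl line 1 and from 3.47 to 9.38 CPM in ΔHD2/- line 2 at most, and lower in ΔHD1/- line 1 (4.92 to 3.39 CPM) and ΔHD2/- line 1 (12.3 to 10.7 CPM). Its mean was 0.39 ± 0.37 with the block (adjusted p 0.628). Esrp1 and Grhl2 stayed between -0.64 and 0.18 on the log2 scale in every measurable line. By genotype, Wnt3a called none of the 10 in ΔHD1/fl (0.0151% of all genes), ΔHD1/- (0.00754%), ΔHD2/fl (0.113%) or ΔHD2/- (0.00754%), with none at an unadjusted p under 0.05 without pairing (0.203% to 1.6% of all genes), and edgeR called none (0.0151%, 0%, 0% and 0.00754% of all genes). With the replicate block none was called either (0.00754%, 0.00754%, 0.324% and 0.00754% of all genes). Snai2 then had an unadjusted p under 0.05 in ΔHD2/fl (-1.54 ± 0.46, adjusted p 0.367) and ΔHD2/- (-2.03 ± 0.37, adjusted p 0.182), and no other of the 10 did, beside 6.32% and 5.49% of all genes. EdgeR with the block called none in ΔHD1/fl, ΔHD1/-, ΔHD2/fl and ΔHD2/- (0.0151%, 0%, 0.0528% and 0.0226% of all genes), with 1, 0, 3 and 1 genes at that p (8.18%, 1.7%, 5.86% and 5.32%).

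The 2 responses share their untreated libraries and differ in length, 4 and 3 days, so they were also compared directly. Ovol1 was lower with TGFβ than with Wnt3a by 2.09 on the log2 scale (-2.09 ± 0.64, adjusted p 0.0372), the only one of 10 called without pairing, where 5.19% of all genes were called. With the replicate block, Ovol1 (-2.09 ± 0.37, adjusted p 0.000741) and Zeb2 (1.06 ± 0.34, adjusted p 0.0235) were called, 2 of 10 against 8.70% of all genes. The unpaired Ovol1 call was lost when ΔHD1/- line 1, either ΔHD2/fl line or any ΔHD2/- line was left out or when ΔHD2/- lines 2 and 3 were averaged, and without ΔHD1/fl line 2 the calls were 3 (Ovol1, Ovol2 and Zeb2, with 7.13% of all genes called).

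The next question was whether removal of the floxed allele changed these genes. None of the 10 was called in ΔHD1/- against ΔHD1/fl without cytokine (0.0678% of all genes), with Wnt3a (0.0452%) or with TGFβ (0.0301%), nor in ΔHD2/- against ΔHD2/fl without cytokine (0.550%), with Wnt3a (0.686%) or with TGFβ (0.354%). Without a block, none had an unadjusted p under 0.05 with limma (4.85% to 8.64% of all genes). EdgeR called none in ΔHD1 (0%, 0.00754% and 0% of all genes without cytokine, with Wnt3a and with TGFβ) or ΔHD2 (0.0301%, 0.0452% and 0%), with 1 gene at that p, for ΔHD2 with Wnt3a (8.49% of all genes). The number of a line within its family was also fitted as a block, although lines that share a number are not known to be paired. Limma then called none of the 10 in ΔHD1 (0.279%, 0.309% and 0.633% of all genes without cytokine, with Wnt3a and with TGFβ) or ΔHD2 (1.18%, 1.36% and 0.867%). Only Snai2 had an unadjusted p under 0.05, in ΔHD1 with TGFβ (1.55 ± 0.57) and in ΔHD2 with Wnt3a (-1.59 ± 0.53) and TGFβ (-1.51 ± 0.53), with adjusted p of 0.206, 0.207 and 0.253, where 15%, 12.1% and 11.6% of all genes were at that p. EdgeR with this block had 2, 3 and 4 genes at that p in ΔHD1 (9.89%, 12.4% and 13.7% of all genes) and 0, 3 and 1 in ΔHD2 (12.1%, 12.3% and 11.1%). It called none in ΔHD1 without cytokine (0.0452% of all genes) or in ΔHD2 (0.219%, 0.188% and 0.211%). It called Ovol2 lower in ΔHD1/- than in ΔHD1/fl with Wnt3a (0.181% of all genes) and with TGFβ (0.249%). Since Ovol2 had 0 reads in both lines 2, these calls rest on 1 library against 1, at 17.5 and 1.4 CPM with Wnt3a and 1.68 and 0 CPM with TGFβ. Without ΔHD1/fl line 2, limma called 3 of the 10 with Wnt3a, Zeb1 higher (3.54 ± 0.95) and Ovol1 (-4.20 ± 0.99) and Ovol2 (-3.58 ± 0.80) lower in ΔHD1/-, beside 5.33% of all genes. That fit sets 1 ΔHD1/fl library, of a line with Cdh1, against both ΔHD1/- lines, of which line 2 lacks it, and the lone library was assumed to vary like the other groups. The spread between lines was wide in ΔHD1, where untreated Esrp1 was 155 ± 219 CPM (SD, n = 2) in ΔHD1/fl and 97.7 ± 138 (n = 2) in ΔHD1/-. Untreated Esrp1 spread less in ΔHD2, at 383 ± 3.80 (n = 2) in ΔHD2/fl and 467 ± 81.4 (n = 3) in ΔHD2/-. Untreated Zeb1 was 108 ± 137, 93.4 ± 57.3, 9.07 ± 7.17 and 3.18 ± 2.25 CPM in the same groups. The limma SE of these differences ran from 0.56 (Snai1) to 2.90 (Esrp1) on the log2 scale without a block. With the number as a block they ran from 0.40 to 1.23. For genes with the larger SE, changes of several fold could not have been detected. All 12 groups share 1 estimate of the spread, so the Esrp1 SE of 2.65 for untreated ΔHD2 also carries the spread of the ΔHD1 lines.

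The difference in TGFβ response between recombined and fl lines called none of the 10, for ΔHD1 (0.00754% of all genes) or ΔHD2 (0.0301%), and likewise for Wnt3a (0% and 0.0151%). None had an unadjusted p under 0.05 with limma (0.113% to 1.35% of all genes). EdgeR without the block called none of the 10 (0% of all genes in each of the 4 differences) and had none at that p (0.151% to 1.05%). EdgeR with the block called none, with 3 and 2 genes at that p for TGFβ (7.35% and 7.15% of all genes at that p, 0.0377% and 0% called) and 1 and 1 for Wnt3a (1.36% and 1.86% at that p, 0% called in both). Among the limma estimates the widest was that of Ovol1 in ΔHD2, where the fall was 1.57 ± 0.99 smaller in ΔHD2/- than in ΔHD2/fl lines on the log2 scale with the block (adjusted p 0.669).

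Lists of related genes show what stood around the 10. Unless another fit is named, list counts are for the TGFβ mean response with the replicate block, beside 8.92% of all genes called and a median change of -0.16 over all genes. Counts without pairing stand beside 5.42% of all genes, and those without both ΔHD1 lines 2, with the block, beside 11%. Of 12 other epithelial transcription factors and splicing regulators, 11 were tested and 7 fell, with a median of -1.67. The largest falls were those of the grainyhead factors Grhl3 (-2.46 ± 0.42) and Grhl1 (-2.29 ± 0.45), the ETS factor Ehf (-2.16 ± 0.32) and the stem cell factor Klf4 (-1.88 ± 0.26). Without pairing 4 of the 11 fell, and without both ΔHD1 lines 2 there were 8 (median -1.77). Esrp2, the paralogue of Esrp1, was not called.

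Of 12 other EMT transcription factors, 11 were tested, 1 rose and 1 fell, with a median of -0.16. The chromatin protein Hmga2 rose by 2.02 ± 0.31 and was higher in 9 of 9 lines, and Prrx2, the paralogue of Prrx1, fell by 1.57 ± 0.27 and was lower in 6 of 6 measurable lines. Without pairing none of the 11 was called, and without both ΔHD1 lines 2 there were 1 higher and 2 lower (median -0.03).

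Of 14 epithelial junction and polarity genes, 6 fell and 1 rose, with a median of -0.76. The falls were led by the trafficking gene Rab25 (-1.94 ± 0.56), the tight junction gene Ocln (-1.80 ± 0.42), Cdh1 (-1.53 ± 0.59) and the polarity gene Crb3 (-1.46 ± 0.37), while Cldn4 rose by 1.81 ± 0.30. Of 10 mesenchymal genes 5 rose and 1 fell, with a median of 1.43. Integrin α5 (Itga5) rose by 2.92 ± 0.21, α-smooth muscle actin (Acta2) by 2.01 ± 0.70, fibronectin (Fn1) by 1.90 ± 0.30 and Tagln by 1.65 ± 0.60, while S100a4 fell by 1.83 ± 0.23. Without pairing 1 junction gene fell, 2 mesenchymal genes rose and 1 fell. Without both ΔHD1 lines 2, 9 junction genes were lower and 1 higher (median -1.35), and 4 mesenchymal genes were higher and 1 lower (median 0.73). With Wnt3a no gene of these 4 lists was called without pairing (0.0226% of all genes) or with the block (0.241%), nor without both ΔHD1 lines 2 (0.580% and 1.22%). The miR-200 family, which targets Zeb1 and Zeb2, could not be followed: none of 5 hairpin genes passed the filter, with at most 0.296 CPM in any library of this mRNA kit.

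Cell markers moved as well. With TGFβ and the block, 3 of 7 epithelial markers were lower (4 without both ΔHD1 lines 2): Krt5 (-2.12 ± 0.50), Krt14 (-2.09 ± 0.25) and Cdh1. Krt18 (0.90 ± 0.27, adjusted p 0.0152) and Krt8 (0.64 ± 0.29, adjusted p 0.0797) were under the limits but higher in 7 of 9 lines each. Of 7 fibroblast markers tested 1 rose (Col1a1, 1.21 ± 0.36), as did 1 of 2 endothelial markers (Cdh5, 1.20 ± 0.26) and 1 of 2 immune markers (Csf1r, 1.49 ± 0.33). The summed fibroblast markers were higher with TGFβ in 6 of the 7 lines with Cdh1: from 32.7 to 147 CPM in ΔHD1/fl line 1, from 47.2 to 94.8 and 5.29 to 60 CPM in ΔHD2/fl lines, and from 18.6 to 32.8, 1.35 to 3.81 and 1.05 to 5.42 CPM in ΔHD2/- lines. They were lower in ΔHD1/- line 1 (220 to 66.9 CPM) and in both lines without Cdh1 (2649 to 1500 and 6466 to 5079 CPM). The part of other cells in these changes was not tested.

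**Figure D5:**
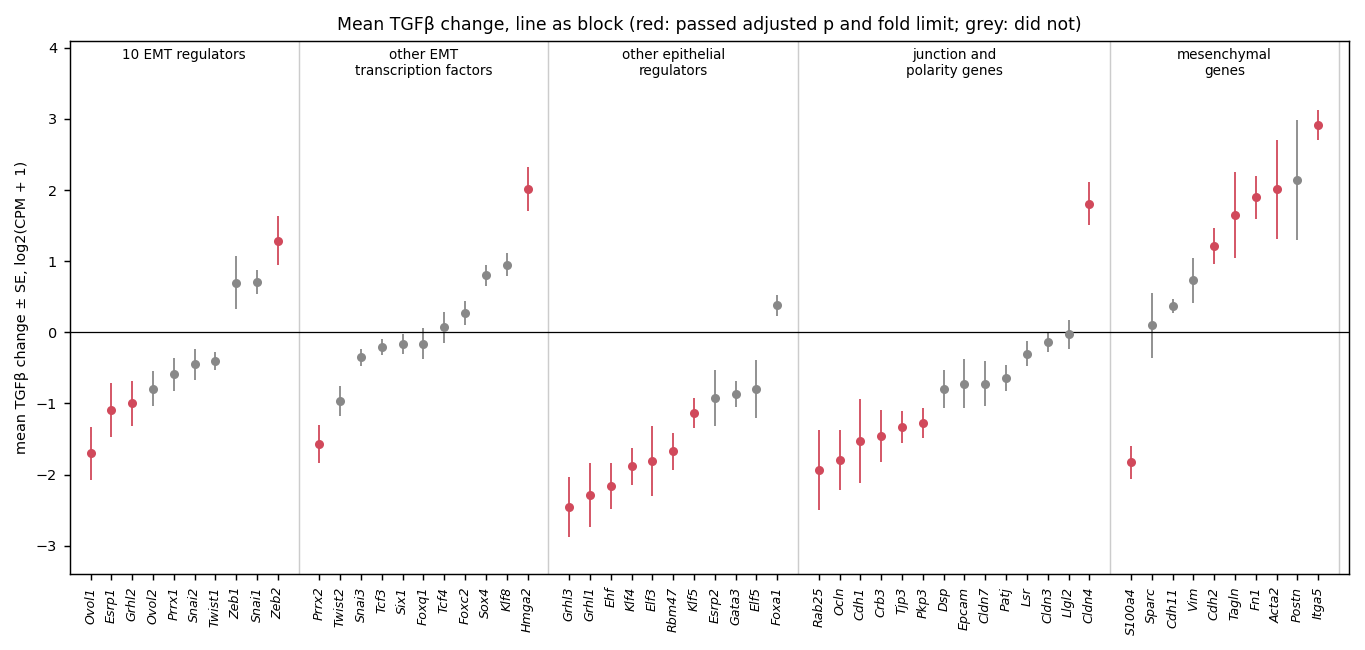
Mean TGFβ change over 4 genotypes ± SE on the log2(CPM + 1) scale with cell line as a block, for the 10 genes and 4 related lists, red where called and grey where not. The other epithelial regulators lie mostly under 0 (median -1.67, 7 of 11 called lower), the mesenchymal genes mostly above it (median 1.43), and the EMT factors on both sides.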

How the data were processed

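RNA was measured in 27 libraries of 9 lines. From stranded mRNA libraries the authors took single reads, placed them on mm10 with STAR, kept unique hits and counted reads starting in RefSeq exons with QuasR. Whether strand was used is not given in the sources used here. The deposited values were CPM, with no other scaling, and each library summed to 1000000. Every value was a whole multiple of 1 read (100% within 0.02), so reads could be recovered (21.86 to 33.69 M per library). Intervals and floors (3 reads) cover counting error only. Of 24454 Entrez identifiers 24374 matched a symbol.

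A gene had to reach 1 CPM in 2 or more libraries, which left 13270 genes. Values were taken as log2(CPM + 1) and fitted by limma (version 3.58.1, R version 4.3.3, trend and robust eBayes), with all libraries in 1 fit of 12 group means. P-values were adjusted by Benjamini-Hochberg over all genes tested, within each of 21 comparisons. A log2 change understates that of low genes. The mean response averages the 4 genotypes. The labels describe replicates as lines from different mice, and libraries of 1 line deviated together from their group means (correlation 0.509 to 0.94), so cell line was also fitted as a replicate block. EdgeR 4.0.16 (quasi-likelihood) on recovered reads and other alternatives are given in the closing section. Tests were tried on simulated data. Exon lengths and coordinates came from GENCODE M21 (GRCm38) and promoters from RefSeq (GRCm38.p6).

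The genes, lists and tests were chosen with earlier results of these data known. The 10 genes were named whatever their values, with the 3 genes most like each (1 is printed, and that of Zeb2 is not reported here). List genes were named where called in a mean response, at most 4 per list and direction.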

Additional observations from a re-analysis of the deposited data

Results flagged for a closer look

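In 3 cases, every fl line of a family changed one way with Wnt3a and every recombined line the other. How many of all genes split this way was not counted, so the number is a description only. The smallest of these changes was 0.02 on the log2 scale, for Snai1 in ΔHD1/- line 2. Snai1 was lower in both ΔHD1/fl lines and higher in both ΔHD1/- lines (difference 0.32 ± 0.86 on the log2 scale), and higher in both ΔHD2/fl lines and lower in all 3 ΔHD2/- lines (-0.67 ± 0.78). Grhl2 was lower in both ΔHD2/fl lines and higher in all 3 ΔHD2/- lines (0.37 ± 2.77). The changes within lines were between -0.53 and 0.28, and the test of each difference gave an adjusted p of 1 (limma). There were 2 or 3 lines per genotype, and no line was tested for standing apart.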

How the results depend on the processing

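Counts are of the 10 genes called, each with the share of all genes called under the same setting. For the TGFβ mean response the count was 0 without pairing (5.42%), 4 with the replicate block (8.92%), 2 with line as a random effect (8.81%), 6 with edgeR and the block (13.8%), 3 at an unadjusted p of 0.05 and 1.5-fold (16.3%) and 5 without both ΔHD1 lines 2 (7.58%). It was 0 to 3 when 1 line was left out (3 without ΔHD1/fl line 2, 7.02%). Settings chosen after seeing the data gave 2 for median-of-ratios scaling with the block (8.54%), 6 without both ΔHD1 lines 2, with the block (11%), and 3 with ΔHD2/- lines 2 and 3 averaged, with the block (9.03%). For TGFβ minus Wnt3a the count was 1 (5.19%), and in the same order 2 (8.7%), 2 (8.69%), 6 (13.6%), 2 (15.7%), 6 (8.07%), 0 to 3 (3 without ΔHD1/fl line 2, 7.13%), 2 (8.67%), 7 (11.1%) and 2 (8.55%). It was 0 with a pseudocount of 0.1 (6.71%), with no filter (3.22%) or with ΔHD2/- lines 2 and 3 averaged (3.91%). For TGFβ in ΔHD1/fl and in ΔHD1/-, each 0, it was 3 and 3 with edgeR and the block (5.84% and 9.41%). These calls rest on line 1 of each genotype, and counts without both lines 2, which leave 1 line in each, are not given. In ΔHD2/fl Ovol1 alone was called with the block (5.24%), the random effect (5.09%) or without both ΔHD1 lines 2 (1.3%), 1 gene with scaling and block (Snai1, with Ovol1 lost, 4.91%), and 2 with edgeR and the block (4.49%) or without both lines 2 and with the block (7.54%). In ΔHD2/- it was 1 with the block (6.03%) or scaling and block (5.61%), 2 with edgeR and the block (8.44%) and 3 without both lines 2 with the block (6.87%). For ΔHD1/- against ΔHD1/fl it was 1 with edgeR and the block (Ovol2), with Wnt3a (0.181%) and with TGFβ (0.249%), and 0 to 3 with Wnt3a when 1 line was left out (3 without ΔHD1/fl line 2, 5.33%). No call turned its direction, though estimates near 0 that were not called did change sign. The cause of these changes was not tested, except that the block removes the spread between lines by construction.

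The labels do not say whether lines that share a number across fl and recombined genotypes are related. Their deviations had correlations of 0.087 to 0.472, and a block on the number called none of the 10 with limma. With a pseudocount of 0.1 the line share of Ovol1 moved from 59.9% to 73.6%. The median share of variation between lines was 88.4% and stayed within its spread (2.9 points, leaving out 1 line) with a pseudocount of 0.1 or the other scaling. Without both ΔHD1 lines 2, chosen after seeing the data, it was 67.6%. The 3-read floor limits Esrp1, Ovol1 and Ovol2 in both ΔHD1 lines 2, Ovol1 and Ovol2 in ΔHD1/- line 1 with TGFβ, Snai2 in ΔHD1/fl line 1 with Wnt3a, Grhl2 in ΔHD1/fl line 2 without cytokine and with Wnt3a, Twist1 in 2 lines and Prrx1 in 4.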
